A study of Mus musculus with 2 samples.

Results

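The interleukin and interleukin receptor genes were examined in cultured intestinal subepithelial myofibroblasts (ISEMFs), the smooth muscle actin-bearing mesenchymal cells that lie beneath the epithelium of the gut. The genes were taken by symbol alone, as every protein-coding gene whose symbol begins with Il followed by a digit, and 85 of the 37309 genes in the table (22379 of them protein-coding) met this rule. They comprised 39 ligands, 39 receptor subunits, 6 inhibitors (secreted antagonists, binding proteins and decoy receptors) and Il4i1, an enzyme named for its induction by interleukin-4. RNA sequencing had been performed on 1 library of supportive ISEMFs, grown from the small intestine of 5-day-old neonatal C57BL/6 mice, and 1 library of non-supportive ISEMFs, grown from the small intestine of 2-month-old adult C57BL/6 mice. Both populations were isolated and grown in the same way, in a serum-containing medium with insulin, transferrin and epidermal growth factor. The study asked which transcripts distinguish ISEMFs that sustain the growth of intestinal crypts without added R-spondin from ISEMFs that sustain it weakly. Neither population had a replicate library, so no difference has a replicate check and no p-value is given. The age of the mice and the ability to support crypts cannot be told apart in this design, and the number of mice behind each culture is not given in the sources used here. The deposited table names the supportive cells with the tag P16 and the non-supportive cells with the tag P3, which the sources do not define. If these tags are culture passages, passage too cannot be told apart from population.

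Interleukins are secreted signalling proteins through which immune, epithelial and stromal cells communicate. Most act on receptors built from a ligand-specific subunit and a subunit shared by several cytokines, such as gp130 for the IL-6 family, the common gamma chain for many lymphocyte cytokines, and the IL-1 receptor accessory protein for the IL-1 family. Receptors of the IL-6, common gamma chain, IL-10 and IL-12 families signal through JAK kinases and STAT transcription factors, whereas those of the IL-1 and IL-17 families signal largely through adaptors that lead to NF-kB. Stromal cells of the gut are known as targets and sources of several of these cytokines, among them IL-6.

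The libraries held 50674472 (supportive) and 49615497 (non-supportive) reads assigned to genes, of which mitochondrial genes took 14.6% and 7.85%. Levels are given as RPKM, the reads on a gene per kilobase of its exons, scaled by the reads of the library, so that levels can be compared between genes. The myofibroblast markers Acta2 (RPKM 908 and 1410 in the supportive and non-supportive libraries) and Vim (325 and 407) were abundant in both libraries, while Des, encoding desmin, was at 0.575 and 3.40. The libraries also differed in leukocyte transcripts: all 10 macrophage markers examined were lower in the supportive library, with a summed RPKM of 9.46 against 128. Of these, 5 (Aif1, Emr1, Itgam, Ptprc and Tyrobp) had no read in the supportive library and 0 were without reads in the non-supportive library, where Tyrobp reached an RPKM of 30.0. Markers of T cells (summed RPKM 0.0568 and 0.0951), B cells (0 and 0.00988) and mast cells (0.0867 and 0.0126) were near 0 in both libraries. The summed RPKM was 1945 and 2789 for 5 myofibroblast, 743 and 394 for 5 fibroblast, 0.530 and 3.28 for 5 epithelial, 0.00359 and 0.205 for 4 endothelial and 0.127 and 0.0432 for 4 mesothelial markers. Single genes carried some of these sums, and others went against them: Krt20 made 3.13 of the epithelial sum in the non-supportive library while Cdh1 was at 0.427 and 0.0497, and Col1a2 was at 286 and 41.6 while Pdgfra, also a fibroblast marker, was at 3.37 and 12.1. In such bulk samples, fewer cells of a type and less RNA per cell cannot be told apart.

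Most interleukin genes were undetected or scarce, and receptor transcripts far exceeded ligand transcripts. At least 1 read was found for 61 of the 85 genes (71.8%, against 73.3% of all protein-coding genes), comprising 20 of 39 ligands, 35 of 39 receptors, 5 of 6 inhibitors and Il4i1. Summed over the genes of each role, receptors reached RPKM totals of 119 (supportive) and 78.6 (non-supportive), and ligands 2.95 and 7.25. A few genes made up these sums: Il6 accounted for 56.3% and 53.7% of the ligand RPKM, and Il6st together with Il17ra for 89.3% and 75.7% of the receptor RPKM. Only 11 of the 85 genes reached an RPKM of 1 in either library, all 11 of them in the non-supportive and 7 in the supportive library. Il13ra1, Il1a, Il10rb and Il7r thus passed this level through the non-supportive library alone, and the counts over the 11 genes below are a description of them.

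A gene was counted as different where its RPKM differed at least 2-fold on the scale of log2(RPKM + 0.1), which understates the difference of scarce genes. Of the 11 genes that reached an RPKM of 1, 1 was 2-fold higher in the supportive library (Il6st), 6 were 2-fold lower (Il1a, Il7r, Il13ra1, Il1rl2, Il6 and Il1r1) and 4 were neither. Among all 9110 protein-coding genes at this level, 18.2% differed 2-fold, 9.25% being higher and 8.98% lower in the supportive library. The median log2 ratio was -1.01 over the 11 genes and -0.07 over the 9110. A wider count took in the 37 interleukin genes with at least 20 reads over both libraries, since a ratio from so many reads has a usable counting interval. Some passed this minimum through 1 library alone, such as Il7r, Il21r and Il2rg through the non-supportive and Il16 and Il1rapl1 through the supportive library. The counts over the 37 genes are therefore a description of them. Of these 37, 6 were 2-fold higher, 10 were 2-fold lower and 21 were neither, so that 43.2% differed, and the median log2 ratio was -0.21. Among the 13154 protein-coding genes with at least 20 reads, 19.3% differed 2-fold, 9.25% higher and 10.0% lower, with a median of -0.05. Ligands (3 of 7) and receptors (12 of 26) contributed to this count in like shares, of 42.9% and 46.2%.

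**Figure D1:**
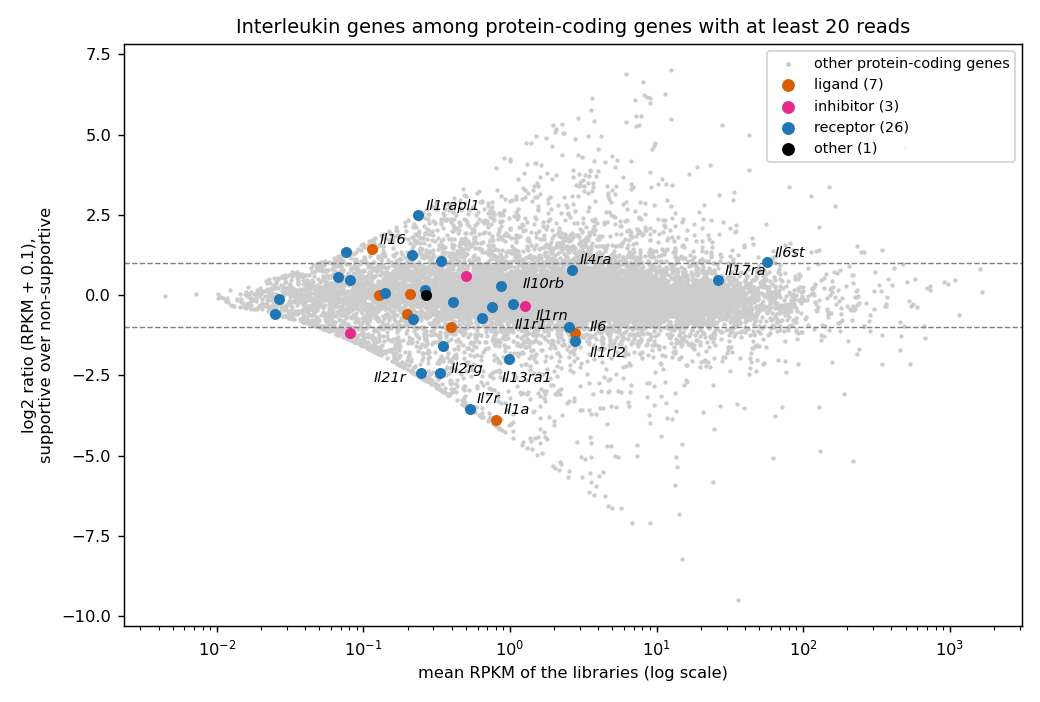
Log2 ratio of supportive over non-supportive ISEMFs, computed on RPKM + 0.1, against the mean RPKM of the libraries on a log scale, for the 13154 protein-coding genes with at least 20 reads (gray) and the 37 interleukin genes among them (colored by role). Dashed lines mark 2-fold; Il6st and Il17ra stand to the right at high levels, Il1a and Il7r lie farthest below, and most interleukin genes lie at or under a mean RPKM of 1.

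Ligands were represented by Il6 and Il1a, both lower in the supportive library. Il6 encodes interleukin-6, an inflammatory cytokine that signals through gp130 (mm9 chr5:30339701-30346508, plus strand, 5 exon blocks). It was counted with 129 reads (RPKM 1.66) in the supportive and 294 reads (RPKM 3.89) in the non-supportive library. The level was therefore 2.35-fold lower in the supportive library (95% exact interval of the ratio from the reads, 1.90 to 2.91; log2 ratio -1.18), and the interval reached under 2-fold. All such intervals cover counting error only. Il1a encodes interleukin-1 alpha, a cytokine released by damaged or activated cells (mm9 chr2:129125346-129135708, minus strand, 7 exon blocks). It had 2 reads (RPKM 0.0142) in the supportive and 218 reads (RPKM 1.59) in the non-supportive library, a level 112-fold lower (30.7 to 932; log2 ratio -3.89). Its exons overlap those of Gm14023, a noncoding gene on the opposite strand, over 222 bases. Gm14023 itself was counted with 0 and 11 reads. Macrophages also transcribe Il1a and Il6, and the summed RPKM of the 10 macrophage markers was lower in the same library (9.46 against 128). Their part in the values of these ligands was not tested.

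The promoters of the 11 genes that reached an RPKM of 1 were searched for 4 short motifs of the pathways above. Sequences are shown for the genes whose levels differed 2-fold and which held a match. Whether a match has any part in a level was not tested. Each sequence runs from 250 bases before to 50 bases after the start site in the RefSeq table for GRCm38.p6, a later build than the mm9 of the counts, and 9 of the 11 genes (all but Il17ra and Il10rb) were matched in that table, with 12 promoters. The motifs, searched on both strands, were GGANTTTCC for NF-kB (in 1.25% of the 32851 promoters of the table), TGANTCA for AP-1 (7.81%), TTGNNCAA for C/EBP (6.40%) and TTCNNNGAA for STAT (8.30%). Capitals mark the matches, which do not overlap each other. The promoters lie at chr5:30012864-30013163 (plus strand) for Il6, chr2:129309923-129310222 (minus strand) for Il1a, chr1:40324339-40324638 (plus strand) for Il1rl2 and chr15:9529827-9530126 (minus strand) for Il7r.
Il6: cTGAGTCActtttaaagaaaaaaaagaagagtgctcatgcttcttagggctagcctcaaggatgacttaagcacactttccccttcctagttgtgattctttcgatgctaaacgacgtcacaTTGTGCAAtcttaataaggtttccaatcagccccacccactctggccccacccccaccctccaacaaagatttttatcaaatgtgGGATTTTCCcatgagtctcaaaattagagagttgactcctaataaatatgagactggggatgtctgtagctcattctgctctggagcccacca
Il1a: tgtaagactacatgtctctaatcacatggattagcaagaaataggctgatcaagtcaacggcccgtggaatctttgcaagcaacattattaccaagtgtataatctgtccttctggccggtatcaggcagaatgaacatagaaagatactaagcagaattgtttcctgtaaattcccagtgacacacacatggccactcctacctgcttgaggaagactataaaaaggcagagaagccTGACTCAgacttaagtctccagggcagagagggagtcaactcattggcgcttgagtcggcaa
Il1rl2: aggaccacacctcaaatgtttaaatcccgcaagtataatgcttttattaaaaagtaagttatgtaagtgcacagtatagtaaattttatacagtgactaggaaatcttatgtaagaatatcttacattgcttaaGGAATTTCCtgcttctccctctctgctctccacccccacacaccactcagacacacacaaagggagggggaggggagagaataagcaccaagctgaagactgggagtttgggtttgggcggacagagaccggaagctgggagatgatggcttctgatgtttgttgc
Il7r: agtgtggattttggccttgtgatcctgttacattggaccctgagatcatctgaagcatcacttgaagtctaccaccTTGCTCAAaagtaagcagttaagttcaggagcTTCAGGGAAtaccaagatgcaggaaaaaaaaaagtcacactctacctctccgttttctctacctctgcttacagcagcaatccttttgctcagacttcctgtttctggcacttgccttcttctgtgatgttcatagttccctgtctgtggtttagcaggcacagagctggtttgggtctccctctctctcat
The Il6 promoter held matches to AP-1, C/EBP and NF-kB, which begin at -249, -128 and -43 from the start site. Il1a held AP-1 at -12, Il1rl2 held NF-kB at -116, and Il7r held C/EBP at -174 and STAT at -142. A match to AP-1 at -141 was also present in 1 of the 3 promoters of Il1rn, which did not differ 2-fold. The promoters of Il6st, Il4ra, Il13ra1 and Il1r1 held no match to the 4 motifs in these windows. A match is a description of the sequence and not a site shown to be bound.

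**Figure D2:**
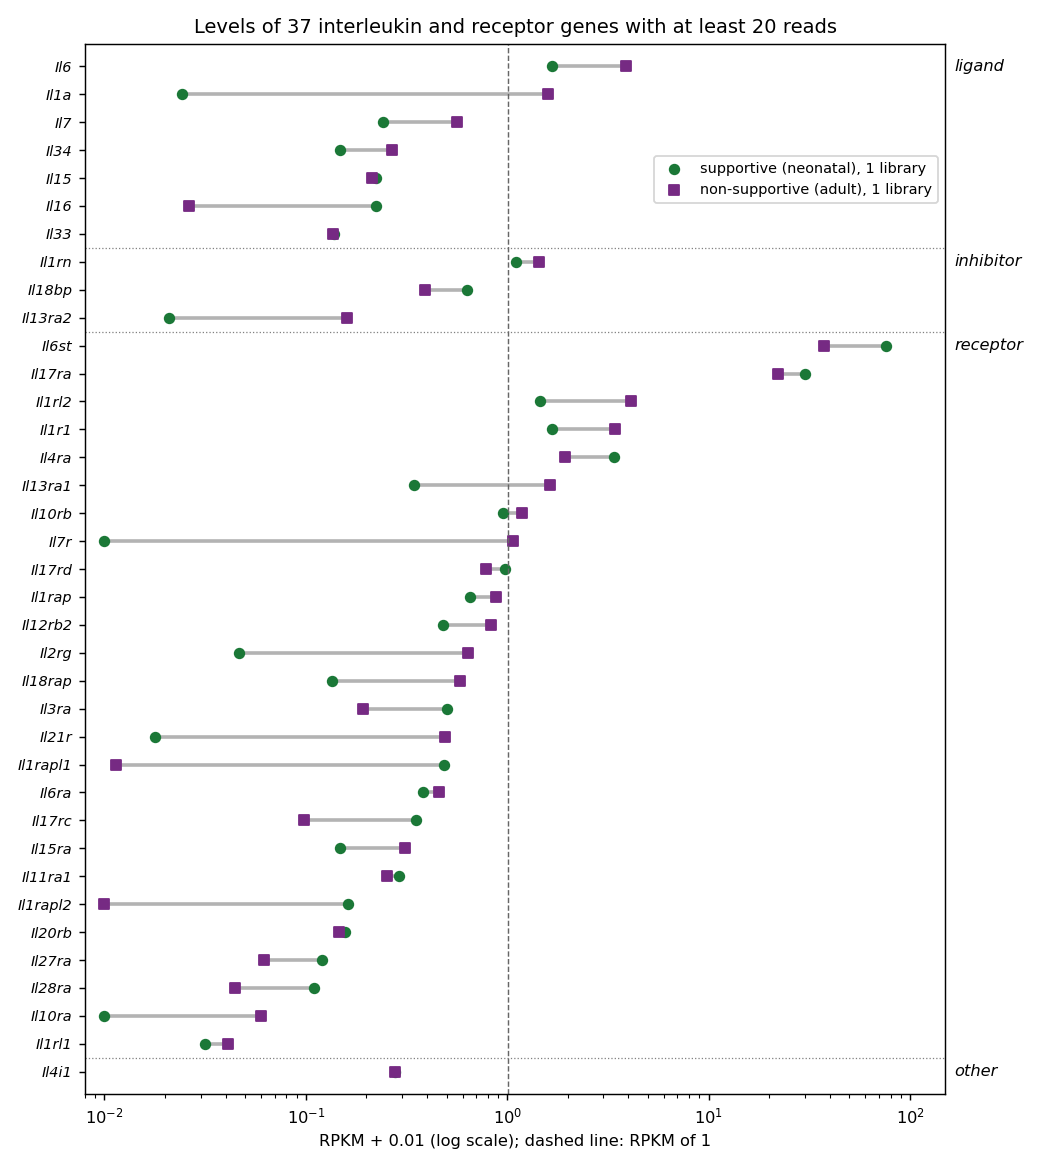
Levels of the 37 interleukin genes with at least 20 reads, as RPKM + 0.01 on a log scale, in the supportive (green circles) and non-supportive (purple squares) library, grouped by role and ordered within each role by the higher of the levels. Each point is 1 library; the dashed line marks an RPKM of 1, which 11 genes reached, and the Il1a and Il7r points lie far apart whereas those of Il15 and Il33 nearly coincide.

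The other ligands with at least 20 reads were scarce. Il7, a growth factor of lymphocytes that stromal cells produce, was at an RPKM of 0.231 (70 reads) and 0.556 (164 reads), 2.41-fold lower in the supportive library (1.81 to 3.24) but just short of 2-fold with the pseudocount (log2 ratio -0.99). Il34, an alternative ligand of the macrophage growth factor receptor, had 22 and 40 reads, and its RPKM of 0.137 and 0.256 gave a 1.87-fold lower level (1.09 to 3.31). Il16, a chemoattractant of CD4-bearing cells, was the only ligand that was 2-fold higher in the supportive library. It had 148 reads (RPKM 0.212) against 11 (RPKM 0.0162), a ratio of 13.1 (7.10 to 26.8). The exons of Il16 overlap Stard5 and 2310044K18Rik on the opposite strand over 1368 bases, and whether the reads were counted by strand is not given in the sources used here. Stard5 itself was at an RPKM of 0.866 and 0.585, and 2310044K18Rik had 3 and 0 reads. Il15, which sustains natural killer cells, had 29 and 27 reads (ratio 1.04; 0.596 to 1.83). Il33, an alarmin of stromal and epithelial cells, had 29 and 28 reads (ratio 1.01; 0.578 to 1.76).

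The remaining 13 detected ligands had between 1 and 15 reads over both libraries, and only their reads are given. Il1b, the inflammasome-processed relative of Il1a that lies in the same 71.5 kb of chromosome 2, had 0 reads against 10 in the non-supportive library. Il11, which signals through gp130 as IL-6 does, had 3 and 4 reads. Il4, a product of type 2 helper T cells and mast cells, had 2 reads in each library. No read was found for 19 ligands, among them Il13, Il17a, Il22 and Il10, the leading cytokines of intestinal type 2, type 17 and regulatory responses. A count of 0 allows up to 3 reads, which is 5.92e-06% of the supportive and 6.05e-06% of the non-supportive reads on genes. Il28a and Il28b, also without reads, are near-identical copies, and reads that fit more than 1 place in the genome had been discarded.

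Of the inhibitors, the IL-1 receptor antagonist Il1rn was the most abundant, and its level differed less than 2-fold. Il1rn (mm9 chr2:24192373-24207014, plus strand), a secreted protein that occupies the IL-1 receptor without activating it, had 446 reads (RPKM 1.10) and 559 reads (RPKM 1.42), a 1.29-fold lower level in the supportive library (1.14 to 1.46). The RPKM of Il1rn was 77.7 times that of Il1a there and 0.893 times in the non-supportive library. The IL-18 binding protein Il18bp was at 0.620 and 0.381 (62 and 37 reads; ratio 1.63, 1.07 to 2.52). Il13ra2, the decoy receptor of IL-13, had 2 reads (RPKM 0.0108) and 27 reads (RPKM 0.151), 13.9-fold lower in the supportive library (3.49 to 121). The IL-1 decoy receptor Il1r2 had 3 and 8 reads, the IL-22 binding protein Il22ra2 had 2 and 0, and the IL-36 receptor antagonist Il1f5 had none.

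Il6st was the most abundant interleukin gene in both libraries and the only 1 of the 11 better expressed genes that was 2-fold higher in supportive ISEMFs. It encodes gp130, the signalling subunit shared by IL-6, IL-11, LIF, oncostatin M and related cytokines (mm9 chr13:113265216-113297068, plus strand, 15 exon blocks). It had 28349 reads (RPKM 76.2) in the supportive and 13566 reads (RPKM 37.5) in the non-supportive library, a ratio of 2.03 (1.99 to 2.07; log2 ratio 1.02). The interval includes 2, so the counting error alone leaves the gene on either side of the 2-fold threshold. The ligand-specific subunits of the family were scarce by comparison. Il6ra, which binds IL-6, was at an RPKM of 0.373 and 0.448 (89 and 104 reads), and its ratio of 0.832 had an interval from 0.620 to 1.11. The RPKM of Il6st was 204.5 times that of Il6ra in supportive and 83.7 times in non-supportive ISEMFs. Il11ra1, which binds IL-11, was at 0.282 and 0.244, and its values are uncertain because the near-identical Il11ra2 and Gm13305 share its sequence. Both copies had no read, as had Il31ra.

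Among IL-17 receptors, the shared subunit Il17ra was abundant and slightly higher in the supportive library, and its partner Il17rc was scarce and higher there too. Il17ra (mm9 chr6:120413215-120433745, plus strand) had 8558 reads (RPKM 30.2) and 6059 reads (RPKM 22.0), a ratio of 1.37 (1.33 to 1.42; log2 ratio 0.46). Il17rc, which pairs with Il17ra to bind IL-17A and IL-17F, had 100 reads (RPKM 0.343) and 25 reads (RPKM 0.0883), a ratio of 3.89 (2.49 to 6.29). Il17rd, a modulator of IL-17 and fibroblast growth factor signalling, was at 0.960 and 0.777 (ratio 1.24, 1.10 to 1.39). All 3 of these ratios had intervals above 1, beside 11 of all 37 interleukin genes with at least 20 reads. No such count was made over all protein-coding genes, so this is only a description of the interleukin genes. Il17rb, the IL-25 receptor, and Il17re, the IL-17C receptor, had at most 11 reads over both libraries.

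The receptors of the IL-1 family contained differences in both directions. A run of 6 such genes lies within 467 kb of chromosome 1 (mm9 chr1:40141613-40608550, all on the plus strand), in the order Il1r2, Il1r1, Il1rl2, Il1rl1, Il18r1 and Il18rap. All 6 had a lower RPKM in the supportive library, and the interval of the ratio lay below 1 for 3 of them and included 1 for the other 3. Those 3, Il1r2, Il1rl1 and Il18r1, had only 11, 41 and 8 reads over both libraries. Among all 37 interleukin genes with at least 20 reads, the interval lay below 1 for 18 and above 1 for 11. Intervals on either side of 1 were not counted over all protein-coding genes, so these counts describe the interleukin genes only. Il1rl2, the receptor of IL-36, had 202 reads (RPKM 1.45) and 553 reads (RPKM 4.08), 2.82-fold lower (2.39 to 3.33). Il1r1, the signalling receptor of IL-1, had 975 reads (RPKM 1.65) and 1961 reads (RPKM 3.42), 2.07-fold lower (1.92 to 2.24; log2 ratio -1.01). The latter stood at the threshold, and its log2 ratio came to between -0.97 and -0.89 with each of 3 other scalings of the libraries. Il18rap, the accessory subunit of the IL-18 receptor, had 66 reads (RPKM 0.125) and 295 reads (RPKM 0.576), 4.60-fold lower (3.51 to 6.10). Its partner Il18r1, which binds IL-18, had only 1 and 7 reads, and Il1rl1, the IL-33 receptor ST2, had 17 and 24.

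The accessory protein Il1rap, which the IL-1, IL-33 and IL-36 receptors share, was at an RPKM of 0.643 and 0.870 (683 and 898 reads), 1.35-fold lower in the supportive library (1.22 to 1.50). Its homologs Il1rapl1 and Il1rapl2, best known from neurons, where the former organizes synapses, went the other way. Il1rapl1 had 346 reads (RPKM 0.473) against 1 read (RPKM 0.00141), a ratio of 336 with a wide interval (60.0 to 13319). Il1rapl2 had 59 reads (RPKM 0.151) against 0, at least 19.1-fold higher against the floor of 3 reads. Both genes lie on the X chromosome and both were nearly absent from the non-supportive library. Of 4 markers of glia and neurons, only S100b reached an RPKM of 1 (6.69 in supportive against 0.116 in non-supportive ISEMFs), Sox10 had no read in either, and the summed RPKM was 6.74 against 0.190. The part of such cells in these values was not tested.

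**Figure D3:**
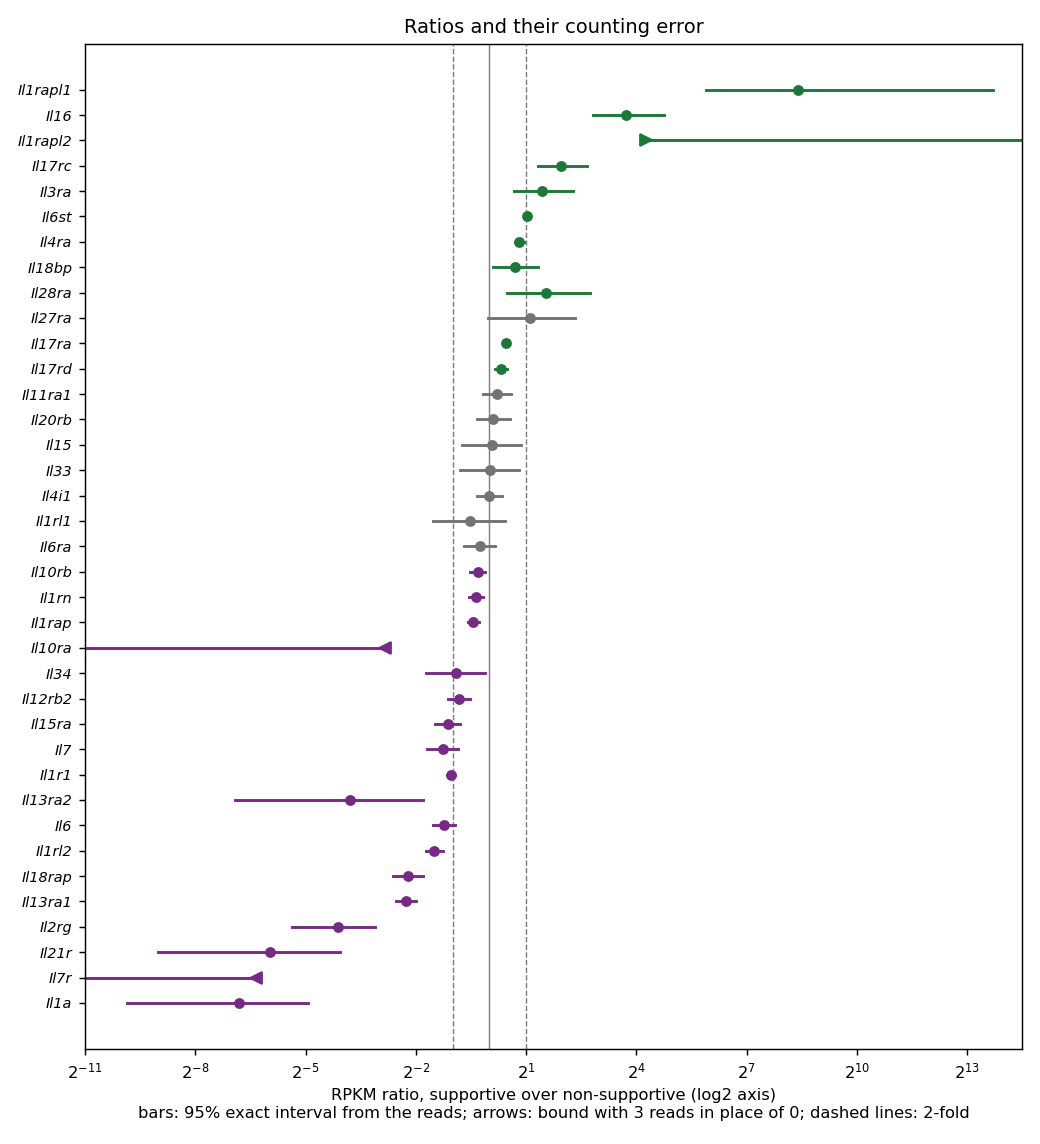
RPKM ratio of supportive over non-supportive ISEMFs on a log2 axis for the 37 interleukin genes with at least 20 reads, ordered by the log2 ratio on RPKM + 0.1, with the 95% exact interval from the reads as bars. Green and purple mark intervals above 1 (11 genes) and below 1 (18 genes) and gray those that include 1 (8 genes); arrows mark genes without reads in 1 library, drawn from the bound given by 3 reads, and dashed lines mark 2-fold.

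The receptors of the common gamma chain family were mostly lower in the supportive library, and the subunits of the IL-4 and IL-13 receptor were split. Of the 6 receptor genes with at least 20 reads grouped with the common gamma chain family, 4 were 2-fold lower (Il7r, Il21r, Il2rg and Il13ra1). A further 2 were neither (Il4ra and Il15ra) and 0 were 2-fold higher. Il13ra1 was placed in this group by hand and does not itself pair with the common gamma chain. Among all protein-coding genes with at least 20 reads, 10.0% were 2-fold lower and 9.25% higher. Il7r, Il21r and Il2rg passed the minimum of 20 reads through the non-supportive library alone, so the count is only a description of these genes. Il4ra (mm9 chr7:132695785-132722986, plus strand), which binds IL-4 and takes part in the IL-13 receptor, had 1705 reads (RPKM 3.39) and 941 reads (RPKM 1.92), a ratio of 1.76 (1.63 to 1.91; log2 ratio 0.79). Il13ra1 (mm9 chrX:33652105-33711254, plus strand), its partner in stromal and epithelial cells, had 148 reads (RPKM 0.336) and 692 reads (RPKM 1.62), 4.81-fold lower (4.02 to 5.79; log2 ratio -1.98). The subunits therefore stood at 10.1 to 1 in the supportive library and 1.19 to 1 in the non-supportive library. Il21r adjoins Il4ra within 81.3 kb of chromosome 7 and differed in the opposite direction, with 2 reads (RPKM 0.00775) and 121 reads (RPKM 0.483), 62.3-fold lower (16.9 to 519.9).

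Il7r and Il2rg, receptors best known from lymphoid cells, were close to the limit of detection in the supportive library. Il7r (mm9 chr15:9435916-9459631, minus strand), the specific subunit of the IL-7 receptor, had 0 reads in the supportive and 237 reads (RPKM 1.06) in the non-supportive library, at least 81.3-fold lower against the floor of 3 reads. The exact interval, which also counts the error of the 237 reads, ends at 65.6-fold, and the corresponding limits are 15.1-fold for Il1rapl2, 5.36-fold for Il10ra and 66.4-fold for Csf2rb. Il2rg, the common gamma chain itself, had 8 reads (RPKM 0.0364) and 135 reads (RPKM 0.632), 17.4-fold lower (8.56 to 41.0). The exons of Il2rg overlap Gm20489 on the same strand over 728 bases, where reads that fit both genes had been left out. Il15ra, which presents IL-15, was at 0.138 and 0.301 (110 and 234 reads), 2.19-fold lower (1.74 to 2.77), though under 2-fold with the pseudocount. The IL-2 receptor subunit Il2rb and the IL-9 receptor Il9r had at most 4 reads, and Il2ra had none. These genes are also expressed by leukocytes, and the macrophage markers described above were lower in the supportive library with them (10 of 10 markers). Of the 5 T-cell markers, Cd3d and Cd3g had no read in either library. Cd3e had 0 and 3 reads, Cd4 had 12 and 22, and Cd8a had 5 and 0. The part of macrophage or T-cell RNA in these differences was not tested.

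Of the receptors for IL-10 and its relatives, the shared subunit Il10rb differed less than 2-fold and the specific subunits were scarce. Il10rb (mm9 chr16:91406409-91426074, plus strand) had 359 reads (RPKM 0.942) and 433 reads (RPKM 1.17), 1.24-fold lower in the supportive library (1.08 to 1.43), and its exons overlap those of the interferon receptor gene Ifnar2 over 569 bases. Il10ra, the IL-10-specific subunit found mainly on leukocytes, had 0 and 21 reads, at least 7.20-fold lower. Il22ra1, the epithelial IL-22 receptor, had 0 and 4 reads. Il28ra, the receptor of interferon lambda, had 30 and 10 reads (ratio 2.92, 1.39 to 6.69), and Il20rb had 91 and 82 (ratio 1.08, 0.791 to 1.47). Transcripts of the IL-10 and IL-22 ligands and of their specific receptor subunits were thus at or near the limit of detection in the supportive library.

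Receptors of the IL-12 family and of the common beta chain family completed the set. Il12rb2, the signalling subunit for IL-12, was at an RPKM of 0.468 and 0.823 (151 and 258 reads), 1.76-fold lower in the supportive library (1.43 to 2.16). Il27ra, the receptor of IL-27, had 22 and 10 reads, and its ratio of 2.14 had an interval that included 1 (0.972 to 5.06). Il3ra, the IL-3-binding subunit, was 2-fold higher in the supportive library, with 53 reads (RPKM 0.491) and 19 reads (RPKM 0.181), a ratio of 2.71 (1.58 to 4.85). The common beta chain Csf2rb, a partner of Il3ra, had 0 and 240 reads, at least 82.3-fold lower. Reads that fit the near-identical Csf2rb2 equally well had been discarded, so its count may be too low. Csf2rb2 itself had 4 and 163 reads. Il5ra had no read. The enzyme gene Il4i1 had 147 and 143 reads (ratio 0.999, 0.788 to 1.27), and its exons overlap those of Atf5 and Nup62.

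Downstream of these receptors, 71 of 72 listed partner genes were found as protein-coding genes, of which 39 had an RPKM of at least 1. Of the 39, 7 were 2-fold higher in the supportive library, 5 were lower and 27 were neither, so that 30.8% differed against the 18.2% of all protein-coding genes at this level. When mitochondrial reads were left out of the library size, the split became 7 higher and 3 lower. With the minimum RPKM lowered to 0.3 or dropped, it became 7 higher and 11 lower, the added genes being Casp1, Cntfr, Csf1r, Csf2rb, Csf2rb2 and Socs2. The median log2 ratio of the 39 was -0.10. Among partners of gp130 at this level, Lifr and Osmr were higher in the supportive library along with Il6st, while Cntfr, under an RPKM of 1, was lower (0.0930 and 0.684, 7.35-fold lower, 4.64 to 12.2). Lifr, the LIF receptor, was at an RPKM of 9.08 and 0.857, a ratio of 10.6 (9.80 to 11.5), and Osmr, the oncostatin M receptor, was at 35.2 and 10.4, a ratio of 3.38 (3.25 to 3.51). Ctf1, which encodes the gp130 ligand cardiotrophin-1, was at 2.81 and 0.557 (ratio 5.05, 3.74 to 6.93). Il6st, Lifr and Osmr were thus each 2-fold or more higher in supportive ISEMFs, whereas the ligand Il6 was lower.

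The kinases differed less than 2-fold. Of the 7 genes listed as feedback inhibitors with an RPKM of at least 1, 4 were 2-fold lower in the supportive library. The share of all protein-coding genes at that level was 8.98%. The 4 include Nfkbiz, which is an NF-kB cofactor rather than a plain inhibitor. None of the 7 kinases with an RPKM of at least 1 differed 2-fold, Jak1 being at 19.8 and 25.9. Of the transcription factors, Stat2, a mediator of interferon responses, was at 12.4 and 1.93 (ratio 6.41, 5.93 to 6.94). Stat3, through which gp130 signals, was at 11.5 and 7.83 (ratio 1.47, 1.43 to 1.51), and Stat6, through which IL-4 and IL-13 signal, was at 7.38 and 5.39 (ratio 1.37, 1.30 to 1.44). Myd88, the adaptor of IL-1 and Toll-like receptors, was at 1.51 and 0.657 (ratio 2.30, 1.97 to 2.69). Of the feedback inhibitors, 0 were 2-fold higher, and with mitochondrial reads left out of the library size Nfkbia and Socs5 were no longer 2-fold lower. Pias1, at 9.71 and 6.45 (ratio 1.50, 1.42 to 1.59), and the scarcer Socs3 (ratio 1.88, 1.41 to 2.53), Pias3 (1.58, 1.37 to 1.83) and Cish (1.52, 1.30 to 1.78) had ratios above 1. Nfkbiz, the cofactor counted in this class and induced by IL-1 and IL-17, was at 2.17 and 15.0, 6.91-fold lower (6.48 to 7.37). Tnfaip3, encoding the NF-kB inhibitor A20, was at 1.23 and 3.84, 3.14-fold lower (2.87 to 3.43). Nfkbia, encoding the NF-kB inhibitor IkB-alpha, was at 2.56 and 5.63, 2.20-fold lower (1.91 to 2.54), and Socs5, a suppressor of cytokine signalling, at 6.67 and 14.4, 2.15-fold lower (2.05 to 2.26). Csf1, the macrophage growth factor that shares its receptor with Il34, was at 20.1 and 87.8, 4.37-fold lower (4.28 to 4.46), and that receptor, Csf1r, had 25 and 343 reads. Casp1, the protease that matures IL-1 beta and IL-18, had 3 and 78 reads.

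**Figure D4:**
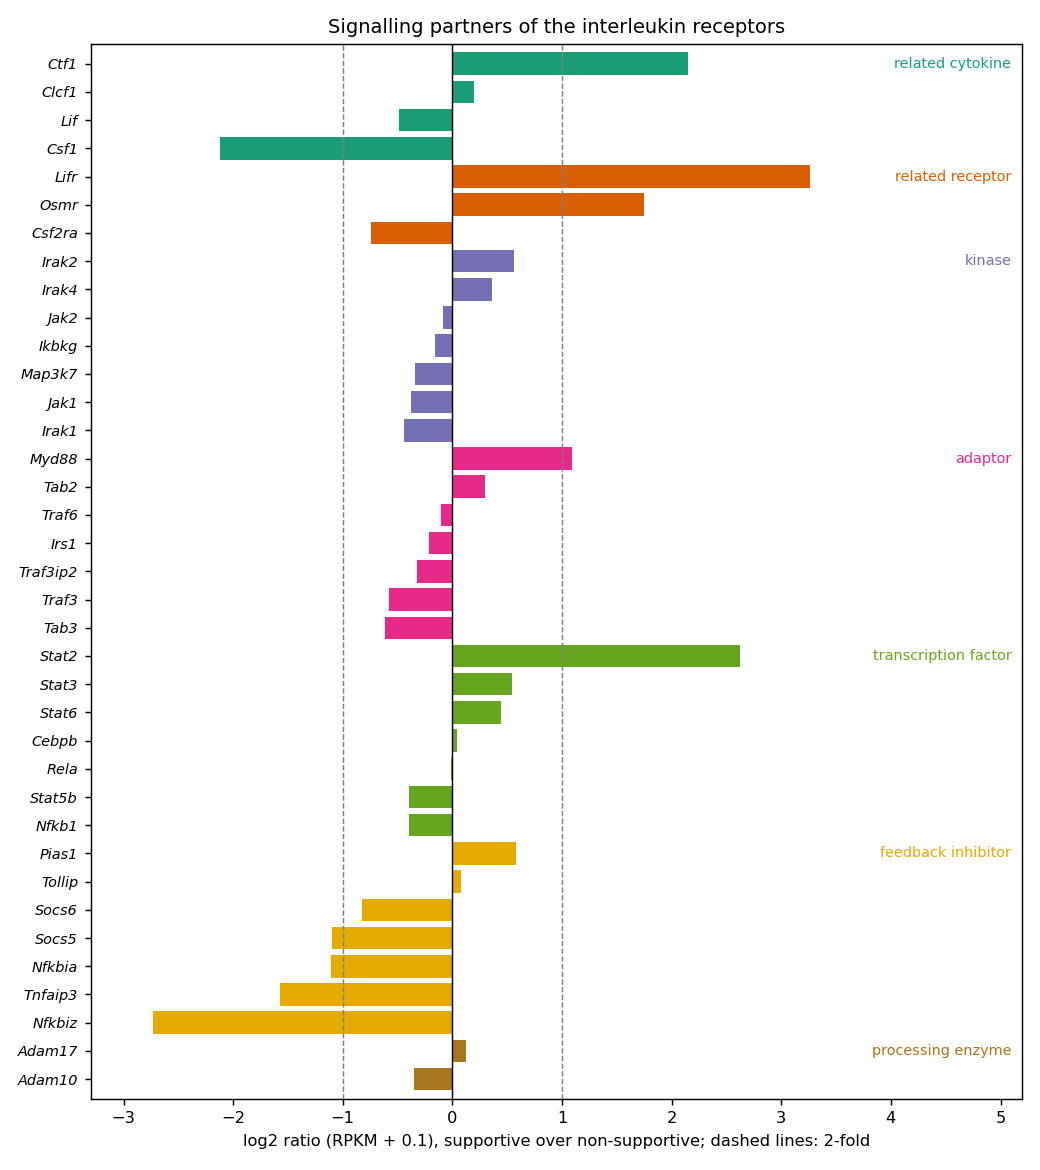
Log2 ratio of supportive over non-supportive ISEMFs, on RPKM + 0.1, for 37 of the 39 signalling partner genes with an RPKM of at least 1, grouped and colored by class. Each bar is 1 gene in 1 library against 1 library; dashed lines mark 2-fold, beyond which lie 5 genes to the right, with Lifr farthest, and 5 to the left, with Nfkbiz farthest.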

How the data were processed

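Purified mRNA of both ISEMF populations was made into libraries with the TruSeq RNA kit and sequenced on an Illumina HiSeq as 50-base single-end reads. The authors aligned the reads to mm9 with TopHat2 2.0.4, using Ensembl genes for splice junctions and allowing 2 mismatches and unique hits only, and counted reads per gene with HTSeq 0.5.4p3 (versions from the submitters' processing notes). The Ensembl release and the strand setting are not given in the sources used here. The deposited counts are whole reads per gene and were not normalized by the authors. The deposited RPKM values were made by the authors from these counts, by dividing them by the length of all exons of the gene together and by the library size, which corresponds to 71463423 reads for the supportive and 69449374 for the non-supportive library. Columns of the authors' own comparison (fold change, p-values and adjusted p-values), and the shorter Wnt pathway table, were not used, and 0 per-sample columns were left without a sample.

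Each library was taken by its population label. Genes were selected by symbol and assigned a role and family by hand, and 72 signalling partner genes and 10 lists of cell type markers were written by hand. The members and lists were chosen with earlier results of these data known. Named in full are the genes that reached an RPKM of 1 in a library. Those with at least 20 reads over both libraries are given with RPKM or reads, the rest are counted by role, and the ligands IL-4, IL-13, IL-17A, IL-22 and IL-10 with their receptor subunits are named at any level. Of the partner genes, those with a 2-fold difference are named under this rule, except 2 that are counted but not reported here by name, and Jak1, Stat3, Stat6, Csf1r, Csf2rb, Csf2rb2, Casp1, Cntfr, Socs2, Socs3, Pias1, Pias3 and Cish were chosen after their values were seen. Differences were counted at 2-fold on log2(RPKM + 0.1). A ratio's interval is the 95% Clopper-Pearson interval of the share of a gene's reads, scaled by the library sizes, and a count of 0 was set to a floor of 3 reads. With 1 library per population no test across replicates was possible. The alternatives were pseudocounts of 0.01 and 1, minimum RPKM values of 0.3, 5 and none, a minimum of 50 reads, scaling by TMM factors (edgeR 4.0.16), by median-of-ratios size factors (DESeq2 1.42.0) or by reads without mitochondrial genes, a 4-fold threshold, and a whole interval beyond 2-fold. Coordinates and exon overlaps came from the GENCODE vM1 annotation of mm9, in which all 85 genes were found, 16 of them with exons that overlap another gene. The steps were tested on simulated data. The scripts ran in R 4.3.3 and Python 3.11.15 with scipy 1.17.1, pandas 2.3.3, numpy 2.4.6 and matplotlib 3.10.9.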

Additional observations from a re-analysis of the deposited data

How the results depend on the processing

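With 1 library per population no replicate could be left out. No paired analysis was possible because each population has 1 library and no result comes from a test. The count of interleukin genes that differed 2-fold, 7 among those at an RPKM of at least 1, was 4 with a pseudocount of 1, 1 with a minimum RPKM of 5, 13 with a minimum of 0.3, 16 with no minimum, 2 at 4-fold and 4 where the whole interval had to lie beyond 2-fold. The receptor count of 5 of 8 became 3 of 8, 1 of 2, 11 of 19, 12 of 39, 1 of 8 and 3 of 8 in the same order. The ligand count of 2 became 1 with a pseudocount of 1, at 4-fold and by the whole interval, and no ligand had an RPKM of 5. Among the 37 interleukin genes with at least 20 reads, the count of 16 became 4 with a pseudocount of 1 and 5 at 4-fold. The count over protein-coding genes (1661) became 837 with a minimum of 5, 2639 with no minimum and 603 at 4-fold, and that of the partner genes (12) became 7 at 4-fold. The share that differed was 36.4% of interleukin against 12.3% of protein-coding genes with a pseudocount of 1. It was 18.8% against 11.8% with no minimum, 18.2% against 6.62% at 4-fold and 36.4% against 15.9% by the whole interval. With a minimum of 0.3 it was 13 of 24 against 2262 of 11298. With a minimum of 5 it was 1 of 2 against 837 of 4725. With no minimum the interleukin count thus rose while its share fell from 63.6% (7 of 11). The counts by the 3 other scalings were 6 interleukin genes, because Il1r1 fell under 2-fold, with log2 ratios of -0.95 (TMM), -0.97 (size factors) and -0.89 (without mitochondrial reads). The last of these shifted the median log2 ratio of protein-coding genes by 0.12, so its log2 ratios are to be read relative to that shift. With a pseudocount of 1 the log2 ratios of 13 of the 37 genes moved by more than their counting interval, all toward 0. Genes without reads in 1 library could not be counted as moved by this rule. Of these, Il7r went from -3.54 to -1.05, Il1rapl2 from 1.33 to 0.20 and Il10ra from -0.58 to -0.07. No called gene changed direction under the alternatives run, but this is no check of direction. Pseudocounts and thresholds cannot reverse a ratio, and the 3 scalings shifted the median log2 ratio by only 0.04 to 0.12.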

Other observations

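Ilf2, an RNA-binding protein gene named as an interleukin enhancer binding factor, stood outside the set. It was at an RPKM of 13.1 (supportive) and 12.4 (non-supportive), above every interleukin ligand in both libraries, with a ratio of 1.05 (0.983 to 1.12). Cebpd, a C/EBP factor induced by IL-6, is listed in the table as a pseudogene and was therefore not among the partner genes compared. It had 60 and 67 reads (ratio 0.870, 0.604 to 1.25). Among the partner genes under an RPKM of 1, Socs2, a suppressor of cytokine signalling, had 54 and 316 reads (6.02-fold lower in the supportive library, 4.50 to 8.19), while Socs3, the inhibitor induced by gp130, had 141 and 73 (ratio 1.88, 1.41 to 2.53). Cntfr, the binding subunit for ciliary neurotrophic factor, had 21 and 150 reads and differed in the opposite direction to Il6st and Lifr, with which it pairs. These genes were chosen after their values were seen.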
